A study of Homo sapiens with 78 samples.

Results

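The response of A549 cells to IL-1β was compared between 24 h and 6 h of treatment, gene by gene, as the IL-1β change at 24 h minus the IL-1β change at 6 h. A549 is an established human cell line from a lung carcinoma, epithelial and with traits of the alveolar type II cell. IL-1β, written IL1B in the labels, was given at 1 ng/ml to confluent wild-type cells that had been kept in serum-free medium overnight, and cells not stimulated (NS) received fresh serum-free medium for the same time. The comparison rests on 15 of the 78 labelled poly(A) RNA libraries: IL-1β for 6 h (4 libraries), NS for 6 h (3), IL-1β for 24 h (4) and NS for 24 h (4). Further libraries of the same series held IL-1β against NS at 1, 2 and 12 h, and budesonide, a glucocorticoid, at 300 nM alone and with IL-1β, and these were used to see how the same genes behaved there and, in the same fit, to estimate the spread between libraries. Of 19652 genes listed, the 13327 that reached 1 TPM (transcript abundance scaled for transcript length and library total) in 3 or more libraries were tested. Values are TPM as rescaled by the authors, changes are on the log2(TPM + 0.5) scale with a standard error (SE), and adjusted p-values are from limma. Calls required an adjusted p of 0.05 or less together with a log2 value of at least 1 in size.

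IL-1β binds its receptor, recruits MyD88 and the IRAK kinases, and activates the transcription factor nuclear factor κB (NF-κB) and the MAP kinases. NF-κB induces chemokines, cytokines and adhesion molecules, and also its own inhibitors, among them IκBα (NFKBIA) and A20 (TNFAIP3). In epithelial cells the cytokine also leads to a secondary wave of genes known from interferon responses, and later to acute phase and complement genes.

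The identity of the cells and the quality of the libraries were checked first. All 7 epithelial markers (EPCAM, KRT8, KRT18, KRT19, CDH1, CLDN4 and ELF3) had a mean of 1 TPM or more. Their summed level was 4770 to 6400 TPM in NS and 2720 to 3620 TPM in IL-1β libraries at 6 h, and 3880 to 4970 and 2480 to 3420 TPM at 24 h, and its part in the results was not tested. Of 8 immune markers only CD14 had a mean of 1 TPM or more, and CD3E and MS4A1 were listed at 0 in every library. The summed immune markers were at 2.14 to 2.81 TPM (NS) and 1.26 to 3.31 TPM (IL-1β) at 6 h, and 1.02 to 2.78 and 3.64 to 7.88 TPM at 24 h. None of 5 endothelial and 2 of 6 fibroblast markers had such a mean. Mitochondrially encoded genes made up 12.7% to 16.0% of the summed TPM. The IL-1β 24 h library number 2 stood apart from its group, with a root mean square log2 distance of 0.594 against 0.232 to 0.400 in the other 14 libraries, and counts are therefore also given without it. No pair of libraries held identical values. The labels speak of 4 independent experiments without saying which library came from which, so the p-values measure the spread between these libraries.

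IL-1β raised 695 genes at 6 h (5.21% of genes tested) and lowered 641 (4.81%). At 24 h it raised 501 (3.76%) and lowered 575 (4.31%). The difference between the times was called for 945 genes (7.09%): 427 positive (3.2%), where the IL-1β change was higher at 24 h, and 518 negative (3.89%), where it was lower. Without the IL-1β 24 h library number 2 these were 433 and 437. The median difference over all genes was -0.01. NS cells alone changed little between the times, with 34 genes up (0.255%) and 9 down (0.0675%), while IL-1β-treated cells had 373 up (2.8%) and 524 down (3.93%). These comparisons share libraries with the difference. For 196 of the 427 positive and 94 of the 518 negative differences, neither NS nor IL-1β-treated cells had a called change between the times. NS cells moved more than IL-1β-treated cells for 42 of the positive and 35 of the negative ones.

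**Figure D1:**
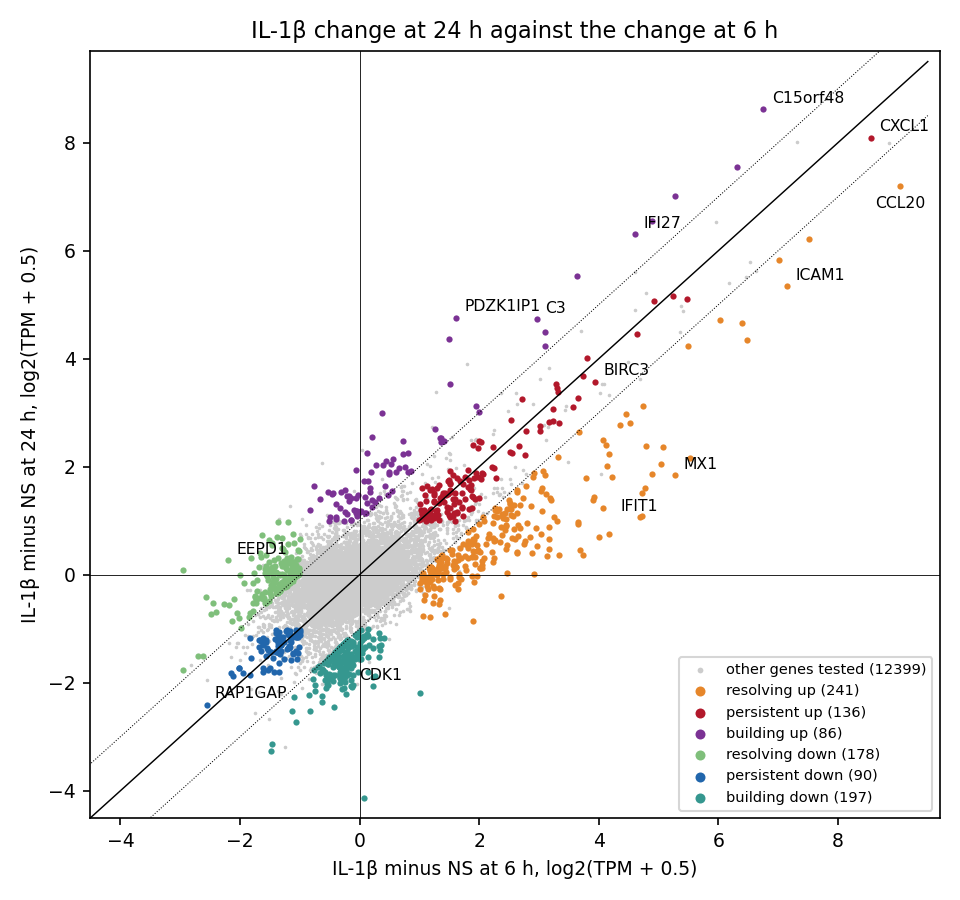
IL-1β minus NS change on the log2(TPM + 0.5) scale at 6 h (x axis) and 24 h (y axis) for the 13327 genes tested, coloured by class. The solid line marks equal changes and the dotted lines a difference of 1; MX1 and IFIT1 lie far below the line, C15orf48 above it, BIRC3 near it, and CDK1 below it at a 6 h change near 0.

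Each gene called at either time was then placed by the difference itself. Of the called differences, 161 of 427 positive and 80 of 518 negative belonged to genes called at neither time, and these genes are in no class. Genes up at 6 h with a negative difference were named resolving up (241 genes, 1.81% of genes tested). Genes up at 24 h with a positive difference were named building up (86, 0.645%). Genes up at both times whose difference was not called and had a 95% interval within -1 to 1 were named persistent up (136, 1.02%). The mirror classes held 178 resolving down (1.34%), 197 building down (1.48%) and 90 persistent down genes (0.675%). Class counts of the gene lists below stand beside these shares. A further 2 genes were down at 6 h and up at 24 h. The remaining 991 genes (7.44%) stayed unsettled. Their difference was not called, and either they were called at only 1 of the times or the 95% interval reached beyond -1 to 1. Without the IL-1β 24 h library number 2 the same classes held 219, 88, 156, 183, 182 and 77 genes. The class is fixed by these contrasts, so its values at 6 and 24 h describe it and test nothing. Many genes lay near the threshold: 230 genes were called at a difference of 1.0 to 1.1 in size, and 249 genes with an adjusted p of at most 0.05 fell just short at 0.9 to 1.0.

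On the TPM scale, the excess of IL-1β over NS at 24 h was a median of 11.3% of that at 6 h in the resolving up genes (quartiles 4.31% and 21.9%). It was 89.6% in the persistent up genes (75.4% and 113%) and 266% in the 19 building up genes that were already called at 6 h. Of the 241 resolving up genes, 71 were still called up at 24 h. IL-1β-treated cells had a median log2 change between the times of -1.46 for the resolving up genes, against 0.02 in NS cells. For the building up genes the corresponding medians were 1.15 and -0.24. Building down genes had -1.33 in IL-1β-treated and -0.05 in NS cells, and resolving down genes 1.08 and -0.23.

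Interferon-stimulated genes resolved as a group. Of 44 tested, 42 were called up at 6 h and 21 at 24 h. The difference was negative for 32 (-3.61 to -1.05) and positive for 1, and the median difference of the list was -1.91 against -0.01 over all genes. Without the IL-1β 24 h library number 2, 31 were negative. The excess over NS at 24 h was a median of 12.3% of that at 6 h for the 42 genes. At 1 h none of the list was called, at 2 h 4 were, and at 12 h 38 were.

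MX1, an antiviral GTPase, was at 1.87, 1.20 and 2.12 TPM in NS cells at 6 h and at 63.8, 67.9, 95.9 and 121 TPM with IL-1β. At 24 h NS cells had 1.38, 1.11, 1.61 and 1.87 TPM and IL-1β-treated cells 5.69, 3.93, 4.24 and 19.1 TPM. No IL-1β library overlapped NS at either time, yet every 24 h value lay below every 6 h value, and the difference was -3.42 ± 0.41 (SE; adjusted p = 1.69e-09). IFIT1, which binds viral RNA, was at 32.5, 29.8, 53.3 and 68.7 TPM with IL-1β at 6 h and at 2.70, 2.45, 2.93 and 11.4 TPM at 24 h. NS cells held 1.01 to 1.19 TPM at 6 h and 0.881 to 1.04 TPM at 24 h, so IFIT1 remained above NS in all 4 libraries at 24 h, with a difference of -3.17 ± 0.41 (adjusted p = 8.94e-09). GBP1, an interferon-inducible GTPase, rose to 41.1, 48.1, 40.3 and 86.2 TPM at 6 h and stood at 2.72, 2.99, 2.02 and 7.92 TPM at 24 h. Its NS levels were 0.462 to 0.791 and 0.206 to 0.899 TPM, and the difference was -3.37 ± 0.44 (adjusted p = 1.02e-08). For these genes the IL-1β 24 h library number 4 was the highest of its group.

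The promoters of IFIT1 and GBP1 are shown because both hold the letters of the interferon-stimulated response element (ISRE), searched on both strands as GAAA, any 2 bases and GAAA. Matches are in capitals, on the strand of the gene, so that a match on the other strand appears as its reverse complement. Sequences are from RefSeq (GRCh38.p14), 250 bases before to 50 bases after the start, for IFIT1 at chr10:89392373-89392672 (plus strand) and GBP1 at chr1:89065159-89065458 (minus strand). The matches begin at -116 and -103 in IFIT1 and at -127 in GBP1, counted from the start site.
IFIT1: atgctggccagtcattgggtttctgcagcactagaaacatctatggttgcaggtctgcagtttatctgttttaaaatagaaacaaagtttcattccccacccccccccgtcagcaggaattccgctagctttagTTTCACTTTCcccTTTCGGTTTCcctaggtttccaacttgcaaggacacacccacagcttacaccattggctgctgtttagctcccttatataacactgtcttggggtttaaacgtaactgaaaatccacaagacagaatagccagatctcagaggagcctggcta
GBP1: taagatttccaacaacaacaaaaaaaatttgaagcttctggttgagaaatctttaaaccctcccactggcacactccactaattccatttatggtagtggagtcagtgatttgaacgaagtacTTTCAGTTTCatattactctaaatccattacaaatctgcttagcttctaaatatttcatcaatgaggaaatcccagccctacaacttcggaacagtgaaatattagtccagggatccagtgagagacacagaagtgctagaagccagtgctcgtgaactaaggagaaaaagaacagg

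IDO1, the tryptophan-degrading dioxygenase, was not on the interferon-stimulated list. It had the lowest difference among resolving up genes of 5 TPM or more at -3.64 ± 0.26 (adjusted p = 2.68e-17), with IL-1β means of 15.6 ± 1.63 TPM at 6 h and 0.770 ± 0.395 TPM at 24 h (SD, n = 4). CMPK2, XAF1, GBP4, RSAD2, OAS2, IFIT3 and OASL had differences from -3.61 to -2.99. The chemokine CXCL10 was listed at 0 in all 3 NS libraries at 6 h, and was at 4.77, 3.95, 5.44 and 11.7 TPM with IL-1β. At 24 h IL-1β-treated cells had 0.000, 0.0835, 0.0832 and 0.894 TPM, below every 6 h value. Not all interferon-stimulated genes followed. IFI27 was building up, from 46.6 ± 19.4 TPM with IL-1β at 6 h to 134 ± 82.9 TPM at 24 h (SD, n = 4), with a difference of 1.71 ± 0.55 (adjusted p = 0.0144), but no positive difference was called in the list without the IL-1β 24 h library number 4, which had 258 TPM, or without NS 6 h number 1. GBP2 persisted, with a difference of -0.26 ± 0.28. IFI6 had 74.7 ± 25.6 and 157 ± 73.3 TPM and was unsettled, as was ISG15 with 72.1 ± 24.1 and 37.8 ± 20.2 TPM. Of 20 interferon regulatory factors, STATs and interferons, 4 were resolving up and 3 persistent up. IRF7, the factor that amplifies type I interferon, went from 39.8 ± 7.09 to 9.12 ± 3.94 TPM with IL-1β (difference -2.42 ± 0.33, adjusted p = 4.08e-08). IRF1, already up by 4.28 at 1 h and 5.29 at 2 h, had a difference of -1.14 ± 0.20 (adjusted p = 7.57e-06).

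Antigen presentation split between its parts. Of 18 MHC class I genes, 17 were up at 6 h and 13 at 24 h, 8 persisted and 3 resolved. The peptide transporter subunits TAP1 and TAP2 resolved (differences -1.38 ± 0.18 and -1.24 ± 0.30), as did the class I transactivator NLRC5 (-2.20 ± 0.40). B2M, the invariant light chain, persisted at 1210 ± 98.0 TPM with IL-1β at 6 h and 1540 ± 260 TPM at 24 h (SD, n = 4), against 426 ± 20.8 (n = 3) and 475 ± 51.4 TPM in NS cells. Its difference was 0.19 ± 0.14 (adjusted p = 0.36).

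Genes of secreted signals fell in several classes. Of 10 tested CXC and CX3C chemokines, 9 were up at 6 h and 6 at 24 h, 5 resolved (CXCL3, CXCL5, CXCL10, CXCL11 and the CX3C chemokine CX3CL1) and CXCL1 persisted. CXCL1, a neutrophil attractant, was at 3.92, 4.16 and 3.88 TPM in NS cells at 6 h and at 1550, 1650, 2120 and 1450 TPM with IL-1β. At 24 h it was at 5.96, 6.27, 9.10 and 5.05 TPM in NS cells and at 1490, 1910, 2290 and 1970 TPM with IL-1β. The IL-1β libraries of both times overlapped, and the difference was -0.45 ± 0.25 (adjusted p = 0.183). CXCL5, by contrast, fell from a change of 6.03 ± 0.17 at 6 h to 4.71 ± 0.16 at 24 h (difference -1.32 ± 0.23, adjusted p = 9.95e-06). Much of this lay in NS cells, in which CXCL5 went from 49.1 ± 7.32 TPM (n = 3) to 93.9 ± 13.8 TPM (n = 4). On the TPM scale its excess of IL-1β over NS at 24 h was 76.7% of that at 6 h.

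Of 5 tested genes on a CC chemokine list, CCL5, CCL8 and CCL20 resolved and CCL26 was building up. Counted by symbol over all 13 tested CC chemokine genes, 7 were resolving up and 2 building up, which adds CCL1, CCL4, CCL15, CCL22 and CCL24, names chosen after their values were seen. CCL20, which attracts CCR6-bearing lymphocytes and dendritic cells, had IL-1β levels of 374, 368, 558 and 643 TPM at 6 h and 76.1, 102, 151 and 351 TPM at 24 h, over NS levels below 1 TPM. The 24 h values lay below all 6 h values, with a difference of -1.84 ± 0.49 (adjusted p = 0.00276), although CCL20 was still up by 7.21 ± 0.33 at 24 h. Of 22 cytokines and colony-stimulating factors, 9 resolved, 2 persisted (IL32 and TNF) and 2 built up (IL11 and CSF3). IL6 was listed at 0 in all 7 NS libraries, and was at 10.4, 12.9, 16.2 and 12.5 TPM with IL-1β at 6 h and 2.46, 3.52, 5.13 and 4.75 TPM at 24 h. All 24 h values of IL6 were thus lower than the 6 h values. CSF3, the granulocyte colony-stimulating factor, went the other way, from 7.97 to 32.5 TPM at 6 h to 31.9 to 92.2 TPM at 24 h, with NS at 0.0985 TPM or less.

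Of 18 tested adhesion genes, 2 were resolving up (ICAM1 and VCAM1), 2 persistent up (ITGA2 and CD47), 1 resolving down, 1 building down and 5 unsettled, and 7 were called at neither time. ICAM1, which binds leukocyte integrins, was at 123, 127, 150 and 101 TPM with IL-1β at 6 h and at 28.5, 31.0, 37.5 and 28.1 TPM at 24 h. NS cells held 0.177 to 0.567 TPM, so both times stood clear of NS, and the difference was -1.81 ± 0.39 (adjusted p = 0.000217). VCAM1, listed at 0 in NS cells at 6 h, was at 1.16 to 2.13 TPM with IL-1β at 6 h and 0.0362 to 0.144 TPM at 24 h. Of 20 tested matrix protease and matrix genes, 4 were resolving up, MMP1 and MMP3 among them, and 3 persistent up (MMP7, PLAU and PLAUR). A further 1 was building up, 1 building down and 4 unsettled, and 7 were called at neither time. PTGS2, the inducible cyclooxygenase, resolved (difference -1.58 ± 0.45, adjusted p = 0.00562), while PTGES, which makes prostaglandin E from its product, built up (1.17 ± 0.26, adjusted p = 0.000407). For PTGS2 the IL-1β levels of both times overlapped, at 389 to 673 and 143 to 498 TPM, and the NS mean went from 22.8 to 47.3 TPM. FOSL1, an AP-1 subunit, had a difference of -2.23 ± 0.21, the lowest of the 25 immediate early genes, of which 20 were up at 1 h and 3 at 24 h.

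Genes of NF-κB and its feedback mostly persisted or were unsettled. Among 18 IκB proteins and feedback regulators, 16 were up at 6 h and 10 at 24 h, 7 persisted, 2 resolved (CYLD and N4BP1) and 7 were unsettled, with a median difference of -0.47. At 1 h 8 of them were already up, and at 2 h 12. NFKBIA was at 258 to 304 TPM with IL-1β at 6 h and 244 to 295 TPM at 24 h, and its difference was -0.35 ± 0.16 (adjusted p = 0.0928). CYLD, a deubiquitinase that restrains NF-κB, went from 33.1 ± 2.53 to 8.90 ± 1.59 TPM with IL-1β (difference -1.41 ± 0.23, adjusted p = 1.54e-06). Of 5 NF-κB subunits, NFKB2 and RELB persisted. NFKB2 was at 178, 179, 169 and 183 TPM with IL-1β at 6 h and 103, 172, 123 and 127 TPM at 24 h. NS levels were lower at 24 h too, at 10.4 to 12.0 TPM against 15.6 to 19.2 TPM, and the difference of the changes was 0.16 ± 0.22 (adjusted p = 0.646).

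BIRC3 and BIRC2 encode the cellular inhibitors of apoptosis cIAP2 and cIAP1, ubiquitin ligases of the TNF receptor complex. BIRC3 was at 10.9, 12.2 and 10.1 TPM in NS cells at 6 h and at 181, 183, 169 and 177 TPM with IL-1β. At 24 h NS cells had 8.40, 8.89, 6.87 and 8.76 TPM and IL-1β-treated cells 98.2, 82.9, 110 and 126 TPM. The IL-1β levels of the 2 times did not overlap, but the change over NS was 3.94 ± 0.18 and 3.58 ± 0.17, and the difference was -0.36 ± 0.25 (95% interval -0.86 to 0.13, adjusted p = 0.288). BIRC3 was therefore placed as persistent. BIRC2 was at 53.8 to 66.9 TPM with IL-1β at 6 h and 35.8 to 43.8 TPM at 24 h, over NS levels of 24.3 to 29.0 and 22.1 to 26.3 TPM. Its change was called at 6 h (1.15 ± 0.14) and missed the fold threshold at 24 h (0.72 ± 0.13), and the difference of -0.42 ± 0.19 was not called (adjusted p = 0.0911). Of the other antiapoptotic genes tested, BCL2A1, a BCL2 relative, resolved from 165 ± 10.2 to 33.6 ± 9.00 TPM with IL-1β (difference -1.74 ± 0.29). CFLAR persisted by the log2 difference, although its excess over NS in TPM at 24 h was 46.9% of that at 6 h. BIRC5 built down. Of the 11 tested genes of this list 5 were called at neither time, and differences were called negative for 2 and positive for 1 (1.39). A separate list held 31 tested genes of the proapoptotic BCL2 family, caspases and death receptors. Of these 4 were resolving up and 5 persistent up, against 1.81% and 1.02% of all genes tested. A place on this list does not mean that a gene promotes apoptosis.

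The promoters of CXCL1 and BIRC3 are shown because both genes persisted and hold the letters of a κB site, searched on both strands as GGG, any 2 bases, TT, any base and CC. Matches are again in capitals. The match begins at -79 in CXCL1, at chr4:73869143-73869442 (plus strand), and at -199 in BIRC3, at chr11:102317234-102317533 (plus strand).
CXCL1: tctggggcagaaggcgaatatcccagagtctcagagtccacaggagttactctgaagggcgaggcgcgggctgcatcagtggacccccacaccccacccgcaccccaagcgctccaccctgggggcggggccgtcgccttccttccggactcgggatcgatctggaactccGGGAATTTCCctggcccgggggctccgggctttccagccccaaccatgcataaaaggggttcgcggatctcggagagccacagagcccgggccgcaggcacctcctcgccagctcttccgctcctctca
BIRC3: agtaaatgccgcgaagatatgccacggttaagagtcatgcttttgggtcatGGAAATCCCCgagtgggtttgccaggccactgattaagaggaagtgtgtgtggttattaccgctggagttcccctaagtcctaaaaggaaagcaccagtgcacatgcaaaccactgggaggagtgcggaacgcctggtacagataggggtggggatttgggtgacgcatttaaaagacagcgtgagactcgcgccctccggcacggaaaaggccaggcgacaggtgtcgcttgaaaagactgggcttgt

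Among members of 5 TPM or more, the highest persistent changes at 24 h were those of CXCL1, CFB, SOD2, IL32, RHCG and IRAK2. CFB, complement factor B, was up by 5.24 ± 0.21 and 5.16 ± 0.19. SOD2, the mitochondrial superoxide dismutase, was at 1530, 1620, 1720 and 1720 TPM with IL-1β at 6 h and 1390, 818, 1640 and 1670 TPM at 24 h, over NS levels of 34.3 to 48.3 TPM. Its lowest value came from the IL-1β 24 h library number 2. IRAK2, a kinase of the IL-1 receptor complex, was at 70.5 ± 2.74 and 72.2 ± 6.97 TPM (SD, n = 4), with a difference of 0.20 ± 0.15.

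Of the 86 building up genes 14 were in any gene list, among them acute phase, complement and matrix genes. C3, the central complement component, was at 14.4, 11.1 and 13.6 TPM in NS cells at 6 h and 82.8, 102, 154 and 93.0 TPM with IL-1β. At 24 h it was at 10.0, 15.9, 26.6 and 8.90 TPM in NS cells and 276, 550, 450 and 314 TPM with IL-1β. All 24 h IL-1β values exceeded those of 6 h, and the difference was 1.76 ± 0.46 (adjusted p = 0.00229). LCN2, an iron-withholding antimicrobial protein, was at 320, 319, 377 and 165 TPM with IL-1β at 6 h and 536, 900, 836 and 335 TPM at 24 h. These ranges overlapped, NS levels were 5.40 to 7.59 and 2.93 to 5.11 TPM, and the difference was 1.73 ± 0.39 (adjusted p = 0.000454). Of 18 complement genes C3 and C1R built up and C4A, CFB and CD55 persisted, and of 13 acute phase genes LCN2 and LBP built up.

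PDZK1IP1, a small membrane protein of epithelia, had the highest difference among members of 5 TPM or more, 3.15 ± 0.25 (adjusted p = 1e-15). Its levels were 15.1, 13.4, 11.6 and 11.7 TPM with IL-1β at 6 h and 70.4, 112, 67.0 and 46.2 TPM at 24 h. NS levels were 3.91 ± 0.712 (n = 3) and 2.14 ± 0.427 TPM (n = 4). IGFBP1, a binding protein of insulin-like growth factors, went from 33.9 ± 12.1 to 261 ± 128 TPM with IL-1β (difference 2.86 ± 0.50, adjusted p = 7.83e-06). HSD11B1, which regenerates cortisol from cortisone, went from 4.52 to 9.13 TPM at 6 h to 16.4 to 43.5 TPM at 24 h, with NS at 0.0559 TPM or less (difference 1.90 ± 0.49). C15orf48, a mitochondrial protein that replaces a subunit of complex IV, was at 646 ± 36.1 and 986 ± 241 TPM with IL-1β, and its NS level went from 5.55 ± 0.978 to 2.06 ± 0.815 TPM, a change of -1.29 that was itself called (adjusted p = 0.00556). Much of its difference of 1.88 ± 0.40 was thus on the NS side. AKR1B1, an aldose reductase, was among the most abundant building genes at 1690 ± 178 and 3210 ± 388 TPM. TGFBI, COL16A1 and PDLIM7, genes of the matrix and cytoskeleton, had differences of 1.85, 1.76 and 1.95. CD14, the lipopolysaccharide coreceptor and the immune marker noted above, was at 0.500 to 1.96 TPM with IL-1β at 6 h and 2.31 to 6.25 TPM at 24 h (difference 1.96 ± 0.59, adjusted p = 0.0086).

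**Figure D2:**
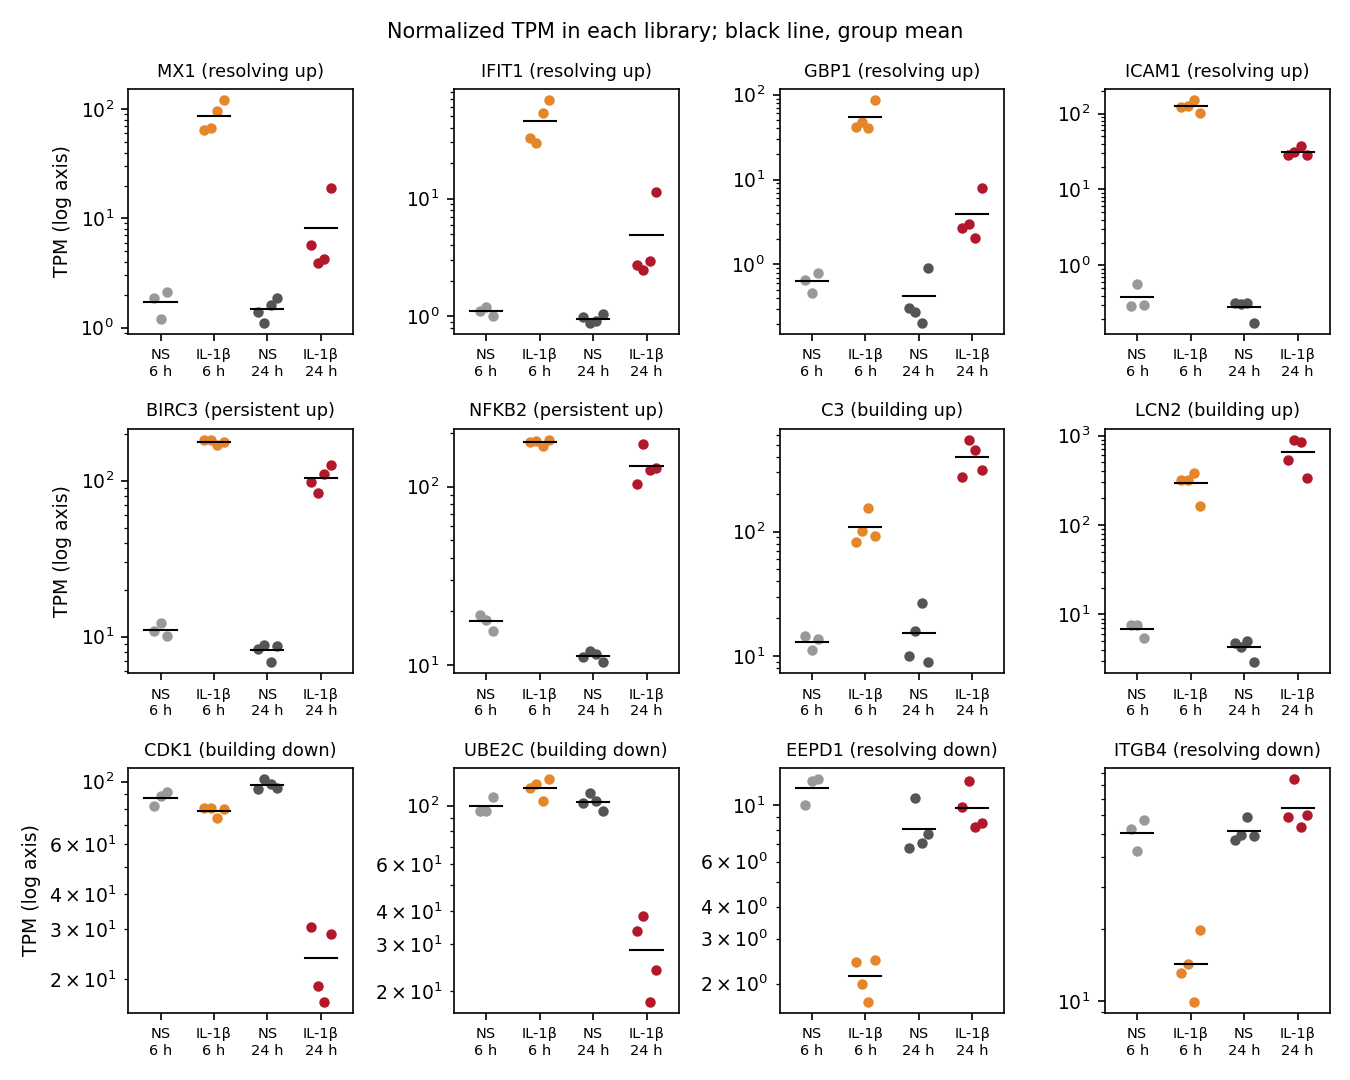
Normalized TPM (log axis) in each library of the 4 groups for 12 genes, with the group mean as a black line. IFIT1 and MX1 are high only with IL-1β at 6 h, BIRC3 and NFKB2 at both times, C3 and LCN2 highest at 24 h, and CDK1 and UBE2C are low only with IL-1β at 24 h.

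Genes of cell division and DNA replication held 33 and 16 of the 197 building down genes. Of 37 genes of mitosis and chromosome segregation, none was called at 6 h and 36 were down at 24 h. The difference was negative for 34 of them (-2.30 to -1.01), with a list median of -1.40, and also for 34 without the IL-1β 24 h library number 2. Over the list the median change went from -0.25 (6 h) through -0.46 (12 h) to -1.67 (24 h), and no member was called at 12 h. In bulk RNA, fewer dividing cells and less of each RNA per cell cannot be told apart. CDK1, the mitotic cyclin-dependent kinase, was at 81.9, 88.9 and 92.0 TPM in NS cells and 80.5, 80.7, 74.0 and 80.0 TPM with IL-1β at 6 h. At 24 h it was at 94.3, 102, 98.3 and 94.6 TPM in NS cells and 30.5, 18.9, 16.6 and 28.9 TPM with IL-1β. The change was -0.15 ± 0.14 at 6 h and -2.06 ± 0.13 at 24 h, and the difference was -1.91 ± 0.20 (adjusted p = 1.48e-11). UBE2C, the ubiquitin-conjugating enzyme of the anaphase-promoting complex, was at 117, 121, 104 and 126 TPM with IL-1β at 6 h and 33.5, 38.3, 18.2 and 24.0 TPM at 24 h. NS levels stayed at 95.3 to 112 TPM, and the difference was -2.12 ± 0.20 (adjusted p = 3.83e-13). PLK1, the polo-like kinase, went from 54.4 to 72.8 TPM at 6 h to 12.8 to 22.9 TPM at 24 h (difference -1.78 ± 0.18). CKAP2L, CIP2A, PRR11, ARHGAP11A, SKA1, DEPDC1 and DDIAS had differences from -2.30 to -1.85.

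Genes of DNA replication moved less between the times. Of 42, 32 were down at 24 h and 1 at 6 h, 16 were building down and 15 unsettled, with a median difference of -0.85. Their median change was -0.42 at 6 h and -0.85 at 12 h, at which 12 were called down. RRM2, a subunit of ribonucleotide reductase, went from 104 ± 12.9 to 29.3 ± 14.0 TPM with IL-1β (difference -1.97 ± 0.32, adjusted p = 2.39e-06), while MCM2 of the replicative helicase had -0.86 ± 0.21 and was not called. The inhibitor of cyclin-dependent kinases CDKN1A was higher with IL-1β at both times, by 0.81 ± 0.10 and 0.74 ± 0.10. Both changes missed the fold threshold and were not called. Outside the cell cycle, NT5DC4 had the lowest difference among members of 5 TPM or more (-4.19 ± 0.89, adjusted p = 0.000201), with 12.5 to 25.4 TPM at 6 h and 0.000 to 3.12 TPM at 24 h with IL-1β. KIF1A, an axonal kinesin, had -3.19 ± 1.14 (adjusted p = 0.0297) and lost its call without NS 6 h number 1, IL-1β 24 h number 2, or IL-1β 6 h number 3 or 4 (-2.98 to -2.81).

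The promoters of CDK1 and PLK1 are shown because both hold CCAAT and the letters TTTGAA of the cell cycle genes homology region (CHR), a pair of motifs known from genes of the G2 and M phases. Both motifs are in capitals. In CDK1, at chr10:60778081-60778380 (plus strand), CCAAT begins at -150 and TTTGAA at -161. In PLK1, at chr16:23678639-23678938 (plus strand), they begin at -73 and -29.
CDK1: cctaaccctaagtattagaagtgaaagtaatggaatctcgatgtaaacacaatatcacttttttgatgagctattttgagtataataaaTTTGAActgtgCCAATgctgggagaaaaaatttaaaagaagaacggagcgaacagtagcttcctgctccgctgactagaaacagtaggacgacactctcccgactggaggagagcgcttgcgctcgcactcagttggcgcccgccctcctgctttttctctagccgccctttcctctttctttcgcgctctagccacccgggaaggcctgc
PLK1: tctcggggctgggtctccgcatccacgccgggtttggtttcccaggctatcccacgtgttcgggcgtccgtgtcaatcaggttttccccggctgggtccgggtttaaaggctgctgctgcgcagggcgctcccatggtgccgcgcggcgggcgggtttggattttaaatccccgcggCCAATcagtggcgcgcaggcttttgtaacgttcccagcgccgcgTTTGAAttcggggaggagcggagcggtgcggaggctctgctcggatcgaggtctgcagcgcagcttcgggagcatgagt

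The same search of both strands was run over the class members with a promoter in the RefSeq table, with TGANTCA for AP-1 added. No motif searched contains another, although TTTGAA and the ISRE letters can share bases. The ISRE letters were in 22.8% of 184 resolving up promoters, 9.62% of 104 persistent up, 1.72% of 58 building up, 1.61% of 124 resolving down, 0.0% of 66 persistent down and 3.77% of 159 building down promoters, against 2.88% of the 10576 promoters of genes tested and 3.65% of all 27305. The κB letters were in 12.0% of resolving up, 15.4% of persistent up and 6.90% of building up promoters, and in 7.26%, 1.52% and 4.40% of resolving, persistent and building down promoters, against 6.72% of genes tested and 5.67% of all. AP-1 letters were in 10.9%, 4.81% and 17.2% of the up classes and 6.45%, 4.55% and 4.40% of the down classes, in the same order, against 4.7% and 7.76%. TTTGAA was in 12.5%, 13.5% and 5.17% of the up classes and 9.68%, 9.09% and 42.8% of the down classes, against 9.67% and 15.4%. CCAAT was in 34.8%, 29.8% and 25.9% of the up classes and 37.1%, 42.4% and 55.3% of the down classes, against 36.2% and 35.7%. These shares count letters in a window and are not measured binding.

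The resolving down class held genes that were called down at 6 h and whose difference was called positive. Of its 178 members 175 were not called at 24 h, and the median change went from -1.32 to -0.01. EEPD1, a nuclease of replication fork repair, was at 9.98, 12.4 and 12.6 TPM in NS cells and 2.42, 2.00, 1.70 and 2.47 TPM with IL-1β at 6 h. At 24 h it was at 6.75, 10.6, 7.09 and 7.68 TPM in NS cells and 9.76, 12.4, 8.18 and 8.51 TPM with IL-1β. IL-1β libraries thus lay below NS at 6 h and overlapped it at 24 h, and the difference was 2.47 ± 0.24 (adjusted p = 1.71e-12). Of 28 genes of cholesterol and fatty acid synthesis, 2 were resolving down, with MVK, the mevalonate kinase, among them, and 26 were called at neither time. The difference was positive for 4, with SREBF1 and SCD among them, and the list median was 0.58. SREBF1, which encodes the sterol-responsive factor SREBP1, had 68.3 ± 7.54 TPM with IL-1β at 6 h and 210 ± 20.5 TPM at 24 h (difference 1.20 ± 0.16, adjusted p = 2.86e-08). The difference counts only the part of this rise that NS cells did not share.

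ITGB4, the integrin of hemidesmosomes, was at 52.3, 42.3 and 57.0 TPM in NS cells and 13.1, 14.3, 9.92 and 19.8 TPM with IL-1β at 6 h. At 24 h both groups overlapped, at 47.1 to 58.8 and 53.2 to 84.5 TPM, and the difference was 2.12 ± 0.29 (adjusted p = 3.79e-08). YPEL3, SNORC and LBH had differences of 2.36, 2.34 and 2.15. FBXL16 had the highest difference among members of 5 TPM or more, 3.04 ± 1.04 (adjusted p = 0.0227), but lost its call without NS 6 h number 1, NS 24 h number 1 or IL-1β 24 h number 3 (2.50 to 2.62). Its libraries varied widely, from 0.554 to 5.66 TPM in NS cells and 0.306 to 8.68 TPM with IL-1β at 24 h. For PRX (2.18 ± 0.67) IL-1β and NS libraries overlapped at both times. NKAIN4 was down at 6 h, at 2.06 to 4.03 against 6.35 to 7.60 TPM, and up at 24 h, at 7.15 to 13.1 against 3.25 to 4.63 TPM, with a difference of 2.43 ± 0.30 (adjusted p = 2.83e-09).

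The persistent down class held 90 genes with a median change of -1.34 at 6 h and -1.30 at 24 h. RAP1GAP, which inactivates the GTPase RAP1, was at 28.7 to 32.3 TPM in NS cells and 4.22 to 5.13 TPM with IL-1β at 6 h. It was at 31.6 to 34.9 and 4.96 to 7.15 TPM at 24 h, with a difference of 0.15 ± 0.18 (adjusted p = 0.565). CDKN2C, an inhibitor of CDK4 and CDK6, was at 5.42 ± 0.383 and 6.37 ± 0.612 TPM with IL-1β against 22.4 ± 0.762 (n = 3) and 23.6 ± 1.15 TPM in NS cells. SPDEF, a transcription factor of secretory epithelium, was down by similar amounts at both times (-2.15 ± 0.20 and -1.81 ± 0.19), while its level was higher at 24 h in NS cells (20.1 ± 2.31 against 10.6 ± 1.48 TPM) and in IL-1β-treated cells (5.37 ± 0.790 against 2.01 ± 0.428 TPM).

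**Figure D3:**
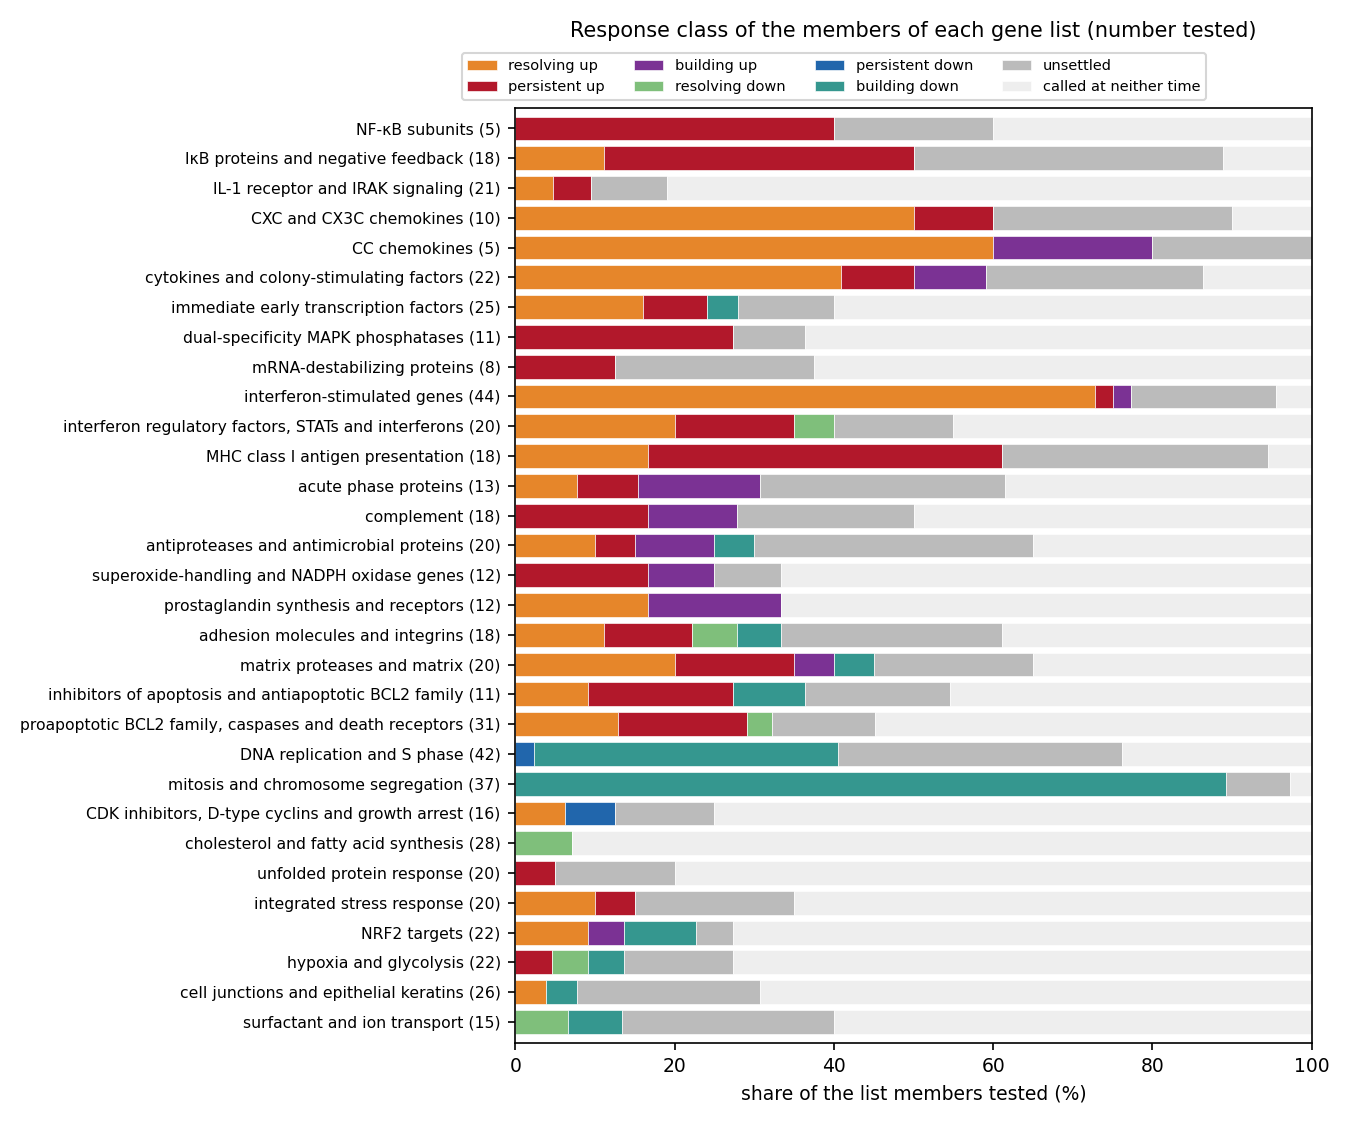
Share of the tested members of each gene list (percent, x axis) that fell in each class, with the number tested in brackets. Interferon-stimulated genes are mostly resolving up and mitosis genes mostly building down.

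For the remaining lists the counts of called differences stand beside 3.89% negative and 3.2% positive among all genes tested. Of 21 genes of IL-1 receptor and IRAK signaling 1 was negative, of 16 CDK inhibitors, cyclins and arrest genes 1 was negative, and of 12 superoxide-handling genes 2 were positive. Of 10 reference genes 1 was negative. Of 22 NRF2 targets 5 were negative, with TXNRD1 and AKR1C1 resolving up, and 3 were negative without the IL-1β 24 h library number 2. Of 20 integrated stress response genes 4 were negative, with ASNS and MTHFD2 resolving up. Among 20 antiprotease and antimicrobial genes 4 were negative and 2 positive, and without the same library 1 and 3. Of 20 unfolded protein response genes 1 was negative, of 22 hypoxia and glycolysis genes 1 was negative and 1 positive, of 26 junction and keratin genes 2 and 1, and of 15 surfactant and ion transport genes 2 and 1. No dual-specificity phosphatase, mRNA-destabilizing gene or mitochondrially encoded gene was called. At adjusted p of at most 0.05 and any fold, the difference was positive for 1772 and negative for 1837 genes over the whole table.

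Times that the classes did not use were examined next. At 12 h, with separate libraries, the median change of the resolving up genes was 0.92, between 2.07 at 6 h and 0.48 at 24 h, and 112 of 241 were called up (3.65% of all genes were). For 210 of the 241 the 12 h value lay between the other two. The same held for 669 of the 991 unsettled and 41 of the 136 persistent up genes, and the wide gap that defines resolving genes makes it likelier. The building up genes had a median of 0.97 at 12 h, between 0.20 and 1.62, with 81 of 86 between. Persistent up genes had 1.44, and 121 of 136 were called up. Among genes lowered, resolving down had a median of -0.47 with 15 of 178 called down (3.08% of all genes), building down -0.60 with 38 of 197, and persistent down -1.26 with 74 of 90. At 2 h, where 2.82% of all genes were up, 96 resolving up, 60 persistent up and 11 building up genes were called up. At 1 h (1.02% up) 33, 24 and 3 were.

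**Figure D4:**
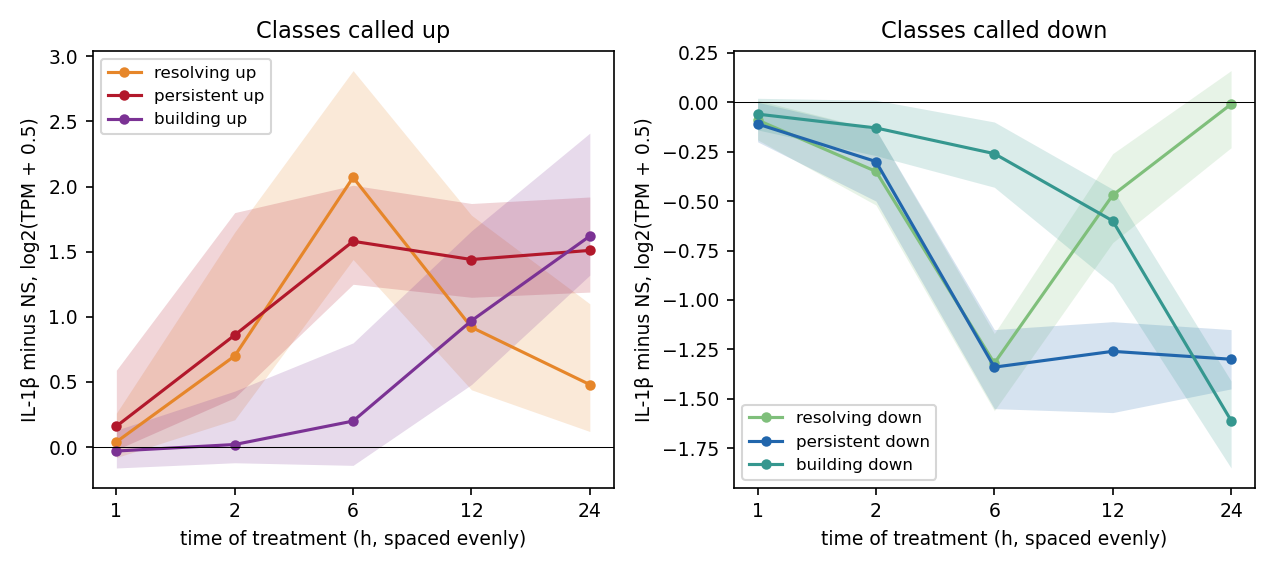
Median IL-1β minus NS change of each class on the log2(TPM + 0.5) scale at 1, 2, 6, 12 and 24 h, with bands from the first to the third quartile over genes. Resolving up genes peak at 6 h (2.07) and building down genes reach -1.61 at 24 h; the values at 6 and 24 h fixed the classes.

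Budesonide libraries gave a separate measure of the same difference, as IL-1β-plus-budesonide minus budesonide alone at 24 h less that at 6 h. With the glucocorticoid present 75 genes were positive (0.563%) and 135 negative (1.01%). In the resolving up class the difference had the same sign for 221 of 241 genes (91.7%), with a median of -0.72, and 74 were called negative. In the resolving down class it had the same sign for 166 of 178 (93.3%, median 0.54), and in the building up class for 65 of 86 (75.6%, median 0.51). In the building down class it had the same sign for 67 of 197 (34.0%), with a median of 0.12 and 1 called negative. Among genes without a called difference, the sign was the same for 67.8% of unsettled, 69.9% of persistent up and 54.4% of persistent down genes. The share in the building up class was thus not far above that of such genes. Members of the resolving and building classes had been chosen for a difference of at least 1 in size without budesonide.

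The difference with budesonide minus that without was itself tested, and was positive for 285 genes (2.14%) and negative for 114 (0.855%). It was positive for 34 of the 37 mitosis genes and 27 of the 42 replication genes. With budesonide present none of the 37 mitosis genes was called down by IL-1β at 24 h (0.713% of all genes were), and their median change was 0.13. This change is measured from budesonide alone, which was not compared with NS, so any effect of budesonide itself on these genes is not shown. The difference with budesonide minus that without was also positive for 15 of the 44 interferon-stimulated genes. With budesonide 22 of these were called up at 6 h (3.01% of all genes) and 3 at 24 h (1.67%), and their IL-1β change with budesonide had a median of 1.01 at 6 h and 0.32 at 24 h. For CDK1 the change between the times was 0.12 with budesonide, for MX1 -1.06 (adjusted p = 0.106), for GBP1 -2.42 (adjusted p = 3.61e-05) and for EEPD1 0.89 (adjusted p = 0.00761). C3 had -1.02 with budesonide (adjusted p = 0.181), and this was lower than its difference without by a tested -2.78 (adjusted p = 0.0025). C3 had been named for its high difference without budesonide, which enters this gap. The gap may therefore be overstated, and its adjusted p takes no account of that choice. NFKB2 and RELB, persistent without budesonide, had -1.18 and -0.96 with it, and the tested gaps were -1.34 (adjusted p = 0.00322) and -1.22 (adjusted p = 0.00703).

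**Figure D5:**
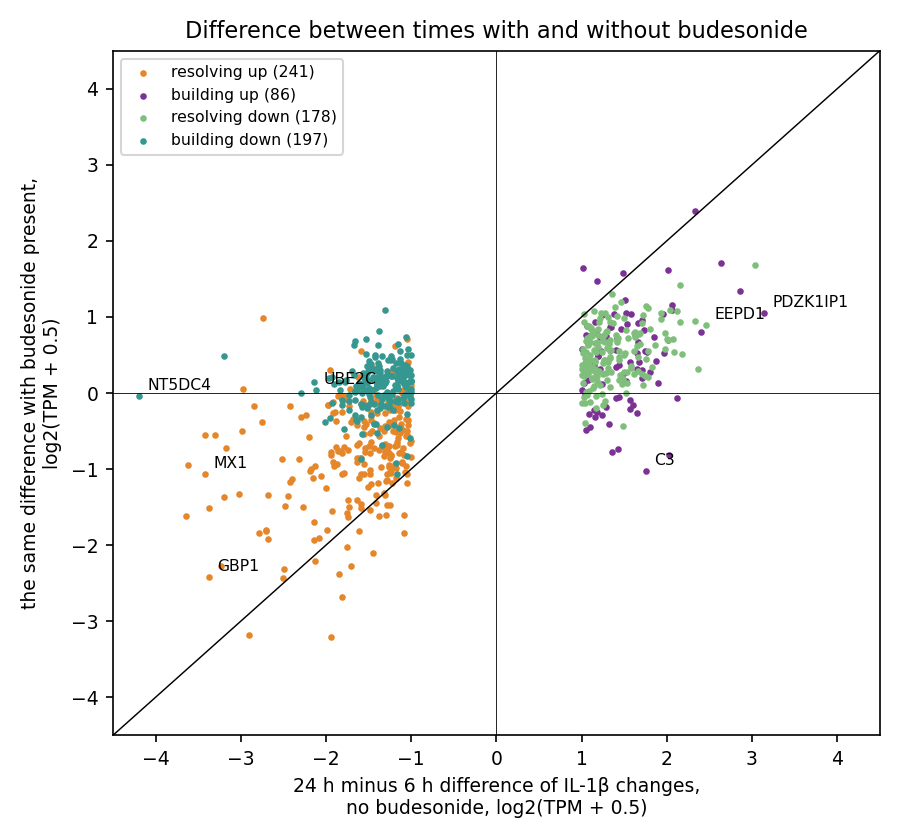
Difference of the IL-1β changes between 24 h and 6 h without budesonide (x axis) and with budesonide present (y axis), both log2(TPM + 0.5), for the resolving and building genes; the line marks equal values. Resolving genes lie mostly on the same side of 0 on both axes, and building down genes, among them UBE2C, lie near 0 on the y axis.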

How the data were processed

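Poly(A) RNA of A549 cells was sequenced from stranded libraries. The authors quantified transcripts with kallisto on GRCh38 (hg38) and normalized them with sleuth, and the deposited table holds gene-level TPM that they rescaled between libraries, so it was treated as a normalized signal and not rescaled. The read count of each library is not given in the sources used here, so its depth is unknown. Summed TPM was 812680 to 956219 in the 15 libraries. A second deposited table of the authors' own fold changes and q-values was not used, nor was 1 library (NS, 6 h, number 3) that the labels do not list.

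A linear model with 1 mean per group (20 groups, 78 libraries, 58 residual degrees of freedom) was fitted to log2(TPM + 0.5) in limma 3.58.1 under R 4.3.3, with a trend on mean level, and tested two-sided with Benjamini-Hochberg adjustment over 13327 genes. The pseudocount understates changes of low genes. On simulated differences the fit recovered 48 of 50 genes changed 3-fold, 50 of 50 at 4-fold and 0 of 50 at 1.5-fold, which lies below the threshold, and called 2 of 13127 unchanged genes. The changed genes were drawn from those with a mean above about 5 TPM, and the noise was normal and independent. Recovery of lower genes, or with a library that stands apart, was not simulated. Classes and gene lists follow the definitions in the text. Named genes had a mean of 5 TPM or more in a group and were the most extreme of their class, by the difference or, for persistent classes, by the change at 24 h (12 in each up class and building down, 8 in the other down classes), plus BIRC3, BIRC2, turning genes and examples from the lists. Alternatives changed the pseudocount, the low-value filter, the scaling, the samples in the fit, the replicate block and the minimum fold, and left out each library in turn. The members and lists were chosen with earlier results of these data known. Results for some genes are not reported here.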

Additional observations from a re-analysis of the deposited data

Results flagged for a closer look

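Single libraries stood apart within groups of 4 for 20 of 198 gene and group combinations (10.1%), by a Dixon test that chance passes in about 1 of 20. In the IL-1β 24 h group, library number 4 was the far highest for 8 interferon-stimulated or related genes: IDO1 at 1.35 TPM, MX1 at 19.1 TPM, GBP4 at 1.52 TPM, GBP1 at 7.92 TPM, CXCL10 at 0.894 TPM, OAS2 at 4.04 TPM, IFIT1 at 11.4 TPM and OASL at 5.67 TPM. Library number 3 was the far highest of that group for SPDEF at 6.56 TPM. Library number 2, which was the most distant over all genes, stood apart in this way for 0 of these genes.

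In the IL-1β 6 h group, library number 4 was far highest for GBP1 at 86.2 TPM, TGFBI at 590.0 TPM and SNORC at 11.7 TPM, library number 2 for FBXL16 at 2.92 TPM and PRX at 7.00 TPM, and library number 3 was far lowest for CDK1 at 74.0 TPM. In the NS 24 h group, library number 4 was far highest for GBP1 at 0.899 TPM, CXCL10 at 0.0407 TPM and SOD2 at 48.3 TPM, and library number 2 was far lowest for CFB at 4.63 TPM and RAP1GAP at 31.6 TPM.

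The IL-1β change differed between 24 h and 6 h, in the test of that difference in limma, for 427 genes that were higher and 518 that were lower at 24 h. The difference itself differed between cells with and without budesonide for 285 genes that were higher and 114 that were lower with budesonide.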

How the results depend on the processing

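Read depth per library is not known, and low genes move most with the pseudocount and the filter. Dropping the minimum fold gave 1772 positive and 1837 negative differences, 2608 up and 3400 down at 6 h, 2070 up and 2460 down at 24 h, 404 positive and 438 negative with budesonide, and classes of 1047 resolving up, 648 persistent up, 412 building up, 1132 resolving down, 877 persistent down, 593 building down, 285 turning and 2768 unsettled genes. A filter at a mean of 5 TPM, which tests fewer genes, gave 217 positive differences, 437 up and 326 down at 6 h, 286 up at 24 h, 27 positive and 59 negative with budesonide, and 130 resolving up, 43 building up, 94 resolving down, 48 persistent down and 0 turning genes. A pseudocount of 0.1 TPM gave 1015 genes down at 6 h, 322 resolving down and 6 turning, and one of 1 TPM gave 415, 98 and 1, with 34 positive with budesonide. Leaving out each library in turn gave 401 to 452 positive and 437 to 594 negative differences, 679 to 720 up and 633 to 687 down at 6 h, 471 to 544 up and 535 to 630 down at 24 h, and 219 to 268 resolving up, 116 to 156 persistent up, 80 to 97 building up, 168 to 211 resolving down, 72 to 94 persistent down, 169 to 234 building down, 994 to 1054 unsettled and 1 to 4 turning genes. The turning count of 1 was without NS 24 h number 2 and that of 4 without NS 24 h number 4.

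Over these settings, other than the minimum fold, the interferon-stimulated list held 29 to 34 negative differences of 44 (16 of 25 under the 5 TPM filter) and the mitosis list 29 to 35 of 37, and both kept a negative median under median-of-ratios scaling and quantile normalization. Among named genes FBXL16 lost its call with only the 4 groups in the fit (3.04, adjusted p = 0.0516) and without NS 6 h number 1, NS 24 h number 1 or IL-1β 24 h number 3 (2.50 to 2.62), and KIF1A without NS 6 h number 1, IL-1β 24 h number 2, or IL-1β 6 h number 3 or 4 (-2.98 to -2.81). Uncalled persistent genes near 0 changed sign: with a pseudocount of 0.1 TPM G0S2 had 0.07, NPHS1 0.18 and C2orf72 0.06, and with each library left out in turn the values ran from -0.01 to 0.16 for C1QTNF1, -0.18 to 0.33 for IL32, -0.37 to 0.01 for RHCG, -0.26 to 0.14 for CFB, -0.23 to 0.09 for G0S2, -0.44 to 0.11 for PLEKHH2 and -0.17 to 0.19 for C2orf72. The cause was not tested.

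The labels do not tie the replicate numbers to experiments. Same-numbered libraries correlated above 0.1 in 13 of 14 pairs (0.054 to 0.405), the exception being IL-1β 6 h and 24 h number 2, and 27 of 28 comparisons of a library with another group were highest for its own number, a hint from the data that the numbers may mark shared experiments. With the replicate number as a block there were 460 positive and 551 negative differences, and no call of a named gene changed.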
